A study of Mus musculus with 12 samples.

Results

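Genes of the antiviral response that interferon induces (Ifit1, Ifit2, Ifit3, Mx1, Mx2, Rsad2, Isg15, Usp18, Ifi44 and Herc6) were followed in CD31+ cells from mouse lung, in which TET2 deletion in endothelial cells (ECs) was crossed with a high-fat diet (HFD). These 10 genes were picked by name from the gene_name entries of 4 deposited tables that together listed 9338 genes. RNA was sequenced from 12 male mice in 4 groups, WT and TET2 KO, each fed chow or HFD, with 3 mice per group. All mice were TET2fl/fl on a C57Bl/6J background, were 6 to 8 weeks old when they received tamoxifen (40 mg/kg on 3 days), and were 30 weeks old when the lungs were taken. TET2 KO mice carried Cdh5-CreERT2, a recombinase that the promoter of the EC gene Cdh5 drives and tamoxifen switches on, and WT mice did not. Chow supplied 13% of calories from fat and HFD 60%, and the diets ran for 20 weeks.

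Each deposited table compares a pair of groups and lists only genes that reached an unadjusted p-value under 0.05 in the authors' own DESeq2 test, so a value exists for a gene and a group only where a table lists it. All 10 genes were listed for HFD against chow in WT mice, 5 for HFD against chow in TET2 KO mice, 4 for TET2 KO against WT on chow and 3 for TET2 KO against WT on HFD. Values in all 12 libraries were therefore at hand for 7 genes, among 975 such genes in the series, while Ifit2 and Mx1 lacked the TET2 KO HFD group and Usp18 lacked the TET2 KO chow group. Libraries held 36.7 to 56.8 M reads on genes, the deepest being WT HFD replicate 1, and the 10 genes took from 30 reads (Ifi44) to 1880 reads (Herc6) in a library. Tet2 itself was listed for HFD against chow in WT alone, where it was 4.73, 5.18 and 5.15 FPKM (reads per kilobase of gene and per M reads of the library) on chow and 6.07, 6.32 and 6.71 FPKM on HFD, so its level in TET2 KO cells was not analysed here and could not check the genotype labels. The EC marker Cdh5, listed in 9 libraries, lay between 47.8 and 290 FPKM, and the macrophage marker Lyz2, listed in the 6 TET2 KO libraries, between 1950 and 5380 FPKM, so the CD31+ fraction was not made of ECs alone. In RNA from bulk cells, fewer cells of a type and less RNA per cell cannot be told apart.

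Interferons bind receptors whose kinases phosphorylate transcription factors, and a complex that holds STAT2 and IRF9 then binds the interferon-stimulated response element (ISRE) of target promoters. Another site, the gamma-activated site (GAS), is used in the response to IFNγ. IFIT proteins bind viral RNA, Mx proteins are dynamin-like GTPases, and RSAD2 (viperin) makes a nucleotide that stops viral polymerases. ISG15 is a ubiquitin-like protein that is attached to other proteins with the help of E3 ligases, among them HERC6 in the mouse, and USP18 removes it and also dampens the type I interferon receptor. IFI44 is an interferon-induced protein whose action is less well understood. Many laboratory mouse strains, C57BL/6 among them, carry Mx1 and Mx2 alleles that make no functional protein, so the Mx values below are transcript levels.

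On mm10, the build of the deposited tables, Ifit2 (ENSMUSG00000045932, chr19:34550694-34576419), Ifit3 (ENSMUSG00000074896, chr19:34583531-34588731) and Ifit1 (ENSMUSG00000034459, chr19:34640871-34650009) lie on the plus strand within 99.3 kb. Mx1 (ENSMUSG00000000386, chr16:97447035-97462907, minus strand) and Mx2 (ENSMUSG00000023341, chr16:97535308-97560900, plus strand) lie within 113.9 kb. Usp18 (ENSMUSG00000030107, chr6:121245906-121270917) and Herc6 (ENSMUSG00000029798, chr6:57581000-57664632) are on the plus strand. Isg15 (ENSMUSG00000035692, chr4:156199424-156200818), Ifi44 (ENSMUSG00000028037, chr3:151730922-151749960) and Rsad2 (ENSMUSG00000020641, chr12:26442746-26456452) are on the minus strand. All were annotated as protein coding except Mx2, a polymorphic pseudogene. Several have near copies that could share reads: the Ifit3 transcript is 97.8% identical to that of Ifit3b over 1700 of its 1745 bases, those of Mx1 and Mx2 are 94.8% identical over 920 bases, and that of Isg15 is 95.2% identical to AC151275.1 over 482 bases. Herc6 overlaps Gm45193 on its own strand and Gm19244 on the other, and Usp18 overlaps Gm44148 on the other strand. Whether reads were counted by strand is not given in the sources used here, so reads of these overlapping pairs cannot be told apart.

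Promoter windows from 250 bases before to 50 bases after the start site were matched for 7 of the 10 genes in RefSeq (GRCm38.p6), which left Mx1, Mx2 and Usp18. The ISRE core, spelled GAAANNGAAA and searched on both strands, was found in 4 of the 7 genes, against 3.99% of 27025 genes (3.44% of 32851 promoter windows). The bases of the 4 windows before the start site are shown because they hold the site named for the interferon-activated complex in genes that were higher on HFD in both genotypes, with the matched bases in capitals (the letters TTTCNNTTTC are the same core on the other strand).
Ifit1 (chr19:34640639-34640888, plus strand): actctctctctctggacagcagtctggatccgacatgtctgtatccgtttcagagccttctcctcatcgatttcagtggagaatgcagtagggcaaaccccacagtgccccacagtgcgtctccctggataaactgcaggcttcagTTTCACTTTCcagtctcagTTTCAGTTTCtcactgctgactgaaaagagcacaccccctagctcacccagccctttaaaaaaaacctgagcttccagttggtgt
Ifit3 (chr19:34583279-34583528, plus strand): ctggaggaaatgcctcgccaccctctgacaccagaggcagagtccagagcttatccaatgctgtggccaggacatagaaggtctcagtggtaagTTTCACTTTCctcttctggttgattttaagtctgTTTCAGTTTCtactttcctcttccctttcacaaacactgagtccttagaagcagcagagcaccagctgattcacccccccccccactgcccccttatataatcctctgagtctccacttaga
Rsad2 (chr12:26456453-26456702, minus strand): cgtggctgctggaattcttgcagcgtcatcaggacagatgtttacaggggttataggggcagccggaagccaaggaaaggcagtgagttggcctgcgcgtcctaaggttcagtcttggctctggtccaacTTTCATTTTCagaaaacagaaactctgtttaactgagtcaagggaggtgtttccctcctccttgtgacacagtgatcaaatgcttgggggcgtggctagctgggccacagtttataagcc
Isg15 (chr4:156200819-156201068, minus strand): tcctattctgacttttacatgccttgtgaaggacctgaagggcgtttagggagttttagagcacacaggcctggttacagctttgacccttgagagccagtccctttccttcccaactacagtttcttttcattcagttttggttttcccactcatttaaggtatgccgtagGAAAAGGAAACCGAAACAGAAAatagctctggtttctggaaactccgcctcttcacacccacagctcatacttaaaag
With positions counted in bases from the start site, Ifit1 held 2 matches, beginning at -104 and -85, and Ifit3 held 2, beginning at -156 and -122. Rsad2 held 1, beginning at -120. In Isg15, 3 matches that overlap each other began at -78, -72 and -66. No match to these letters was found in the windows of Ifit2, Ifi44 and Herc6. The GAS letters TTCNNNGAA were matched in 1 window of Ifit2, beginning at -241, and in 8.3% of all windows and 9.55% of all genes. These are matches of letters and not measured binding.

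**Figure D1:**
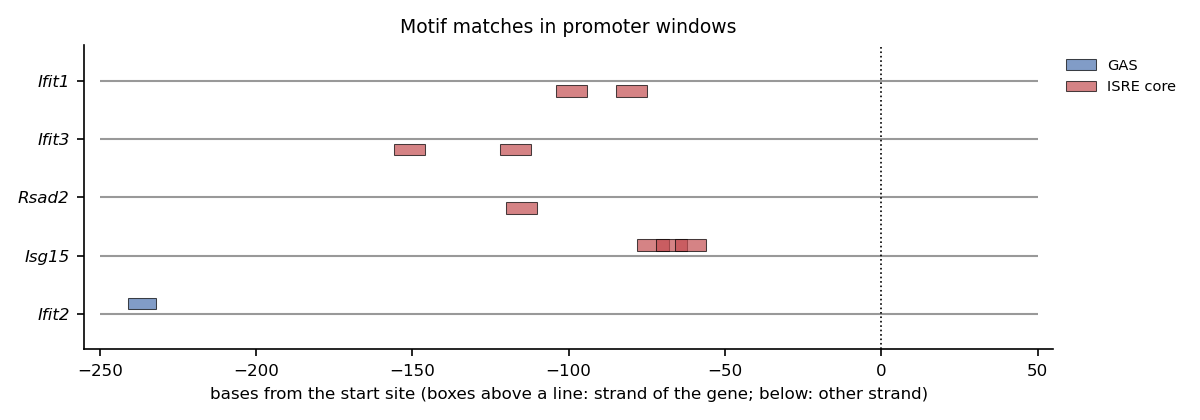
Positions of motif matches in bases from the start site (horizontal axis) in the windows of 5 genes (rows), with boxes above a line for the strand of the gene and below it for the other strand. All ISRE core matches lie between -156 and -57, and the only GAS match is the one in Ifit2.

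Levels of all 10 genes were lowest in WT chow by group mean. They were highest in WT HFD for 8 genes and in TET2 KO HFD for Isg15 and Mx2. By FPKM, which corrects for gene length, Isg15 stood above the other members in every library, from 10.05 to 28.1, and Ifi44 was the lowest in all of them, from 0.133 to 2.84. Neighbouring groups in these orders often overlapped: WT chow and TET2 KO chow were next to each other for 8 genes and overlapped for 7 of them, while the 3 groups with values did not overlap at all for Mx1 and Usp18.

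**Figure D2:**
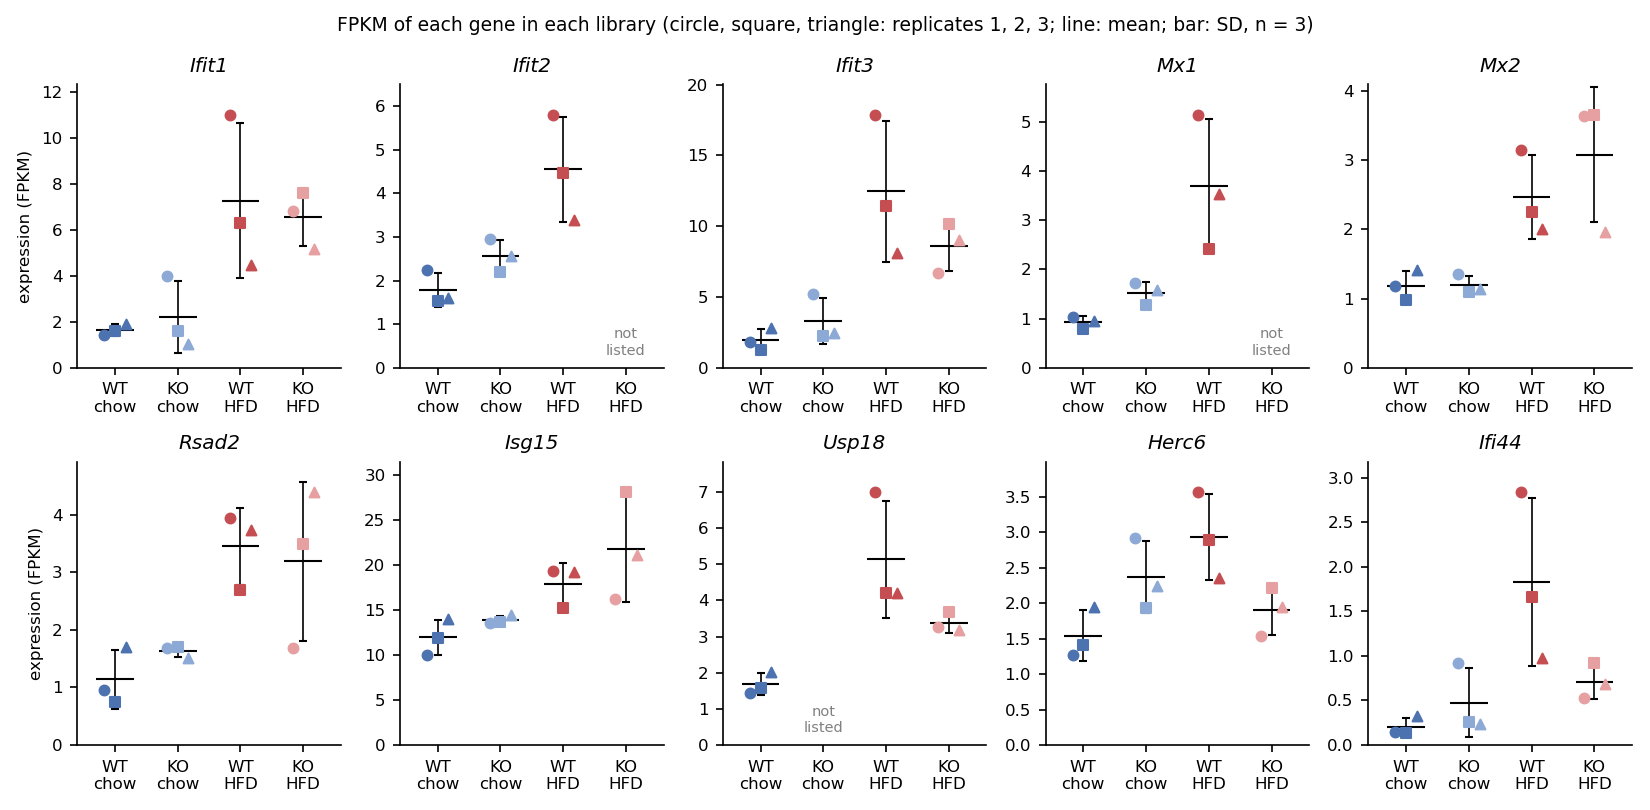
FPKM of each gene (vertical axes, each from 0) in each library of the 4 groups, with the mean as a line and the SD (n = 3) as a bar. WT HFD replicate 1, the circle, is the highest WT HFD library for all 10 genes, and groups that no table lists for a gene are left blank.

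In WT mice, all 10 genes were higher on HFD than on chow, and no HFD library overlapped a chow library for any of them. The differences ran from 1.51-fold for Isg15 to 9.15-fold for Ifi44. Of the genes the authors adjusted, 14.5% were listed as higher in this comparison, and groups did not overlap for 86.5% of the listed genes. In the edgeR quasi-likelihood test, all 10 had an unadjusted p under 0.05, against 91.6% of the listed genes and 42.4% that were called and higher. With Benjamini-Hochberg adjustment over the genes the authors tested, 8 of the 10 stayed under 0.05 in edgeR, against 18.7% of the listed genes. Their median log2 fold change was 1.61, against a median of -0.32 over all listed genes, which turned to 0.27 over the genes with a mean count of at least 10, all 10 members included.

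Among the IFIT genes, whose proteins bind RNA, Ifit1 was 1.41, 1.6 and 1.92 FPKM in the WT chow libraries and 10.99, 6.31 and 4.48 FPKM in the WT HFD libraries. Ifit3 was 1.83, 1.25 and 2.79 FPKM on chow and 17.9, 11.4 and 8.08 FPKM on HFD. Ifit2 was 2.24, 1.53 and 1.61 FPKM on chow and 5.80, 4.47 and 3.40 FPKM on HFD. The lowest HFD library was above the highest chow library for each of the 3 genes, and replicate 1 was the highest HFD library each time. Log2 fold changes were 2.67 ± 0.39 (SE) for Ifit3, 2.15 ± 0.34 for Ifit1 and 1.35 ± 0.25 for Ifit2, with edgeR adjusted p-values of 0.0357, 0.0366 and 0.0371. Ifit3b, the near copy of Ifit3, was also higher on HFD, at 2.65 ± 0.737 FPKM (SD, n = 3) against 0.375 ± 0.186 FPKM.

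The transcripts of the GTPase genes Mx1 and Mx2 and of Rsad2 moved the same way. Mx1 was 1.04, 0.799 and 0.942 FPKM in WT chow and 5.15, 2.42 and 3.53 FPKM in WT HFD. Mx2 was 1.17, 0.972 and 1.40 FPKM on chow and 3.15, 2.25 and 2.00 FPKM on HFD. Rsad2 was 0.963, 0.741 and 1.71 FPKM on chow and 3.94, 2.68 and 3.72 FPKM on HFD. The groups were apart for all of these, with the narrowest gaps for Mx2 and Rsad2 between WT chow replicate 3 and the lowest HFD library. Log2 fold changes were 2.00 ± 0.29 for Mx1, 1.6 ± 0.33 for Rsad2 and 1.07 ± 0.24 for Mx2, with edgeR adjusted p-values of 0.0357, 0.0439 and 0.0497.

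In the ISG15 system, Isg15 itself was the most abundant transcript and the one that differed least, at 10.05, 11.9 and 14.0 FPKM in WT chow and 19.3, 15.2 and 19.3 FPKM in WT HFD. Usp18, which removes ISG15, was 1.44, 1.58 and 2.03 FPKM on chow and 7.0, 4.2 and 4.2 FPKM on HFD. Herc6, an E3 ligase for ISG15, was 1.26, 1.40 and 1.95 FPKM on chow and 3.56, 2.89 and 2.35 FPKM on HFD. The groups did not overlap for any of these. Log2 fold changes were 1.62 ± 0.26 for Usp18, 0.94 ± 0.22 for Herc6 and 0.59 ± 0.18 for Isg15, and the edgeR adjusted p-value was 0.0366 for Usp18, 0.0549 for Herc6 and 0.087 for Isg15, so the latter pair missed the adjusted threshold. Other genes of ISG15 attachment did not all move one way: the E1 Uba7 and the E2 Ube2l6 were higher on HFD (log2 fold changes 0.65 ± 0.15 and 0.81 ± 0.16), while the E3 genes Trim25 and Arih1 were lower (-0.53 ± 0.13 and -0.34 ± 0.11), and of the 4 only Ube2l6 passed the adjusted threshold, with an edgeR adjusted p of 0.041. Ifi44 was 0.145, 0.133 and 0.322 FPKM on chow and 2.84, 1.66 and 0.978 FPKM on HFD, a log2 fold change of 3.19 ± 0.51 with an edgeR adjusted p of 0.0366. It had the largest fold of the 10 and the lowest level, between 30 and 77 reads in the chow libraries.

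The unadjusted calls of all 10 genes held whichever of the 6 libraries was left out, but the adjusted calls did not. Without WT chow replicate 3 the adjusted count was 9, and leaving out any other single library brought it to 0, with lowest edgeR adjusted p-values between 0.0539 and 0.143. Over the 7330 listed genes, 4647 to 5633 were called in these fits. Without WT chow replicate 3, 1594 listed genes passed the adjusted threshold, and without any other single library 0 to 322 did. EC markers moved with the 10 genes: all 10 were listed and higher on HFD, their summed level was 257 to 689 FPKM in the WT chow libraries and 783 to 1360 FPKM on HFD, and none was at 0 reads. Cdh5 was 56.1, 47.8 and 118 FPKM on chow and 290, 222 and 149 FPKM on HFD, so WT chow replicate 3 and WT HFD replicate 1 led their groups in Cdh5 as well as in most of the 10 genes. TET2 KO HFD went the other way: Cdh5 was 158, 82.0 and 84.5 FPKM, led by replicate 1, while replicate 2 led in 7 of the 8 genes with values. All 8 NK cell markers were also listed and higher, with summed levels of 31.2 to 52.5 FPKM on chow and 95.7 to 158 FPKM on HFD. Of 10 monocyte and macrophage markers, 4 were called higher (Cx3cr1, Ccr2, Csf1r, Ly6c2) and 2 lower (Marco, Siglecf). At the edgeR adjusted threshold, 0 of the 10 EC markers and 6 of the 8 NK cell markers passed. So did 4 of the 10 monocyte and macrophage markers: Cx3cr1, Ccr2 and Csf1r, which were higher, and Marco, which was lower. The part of these marker shifts in the levels of the 10 genes was not tested.

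**Figure D3:**
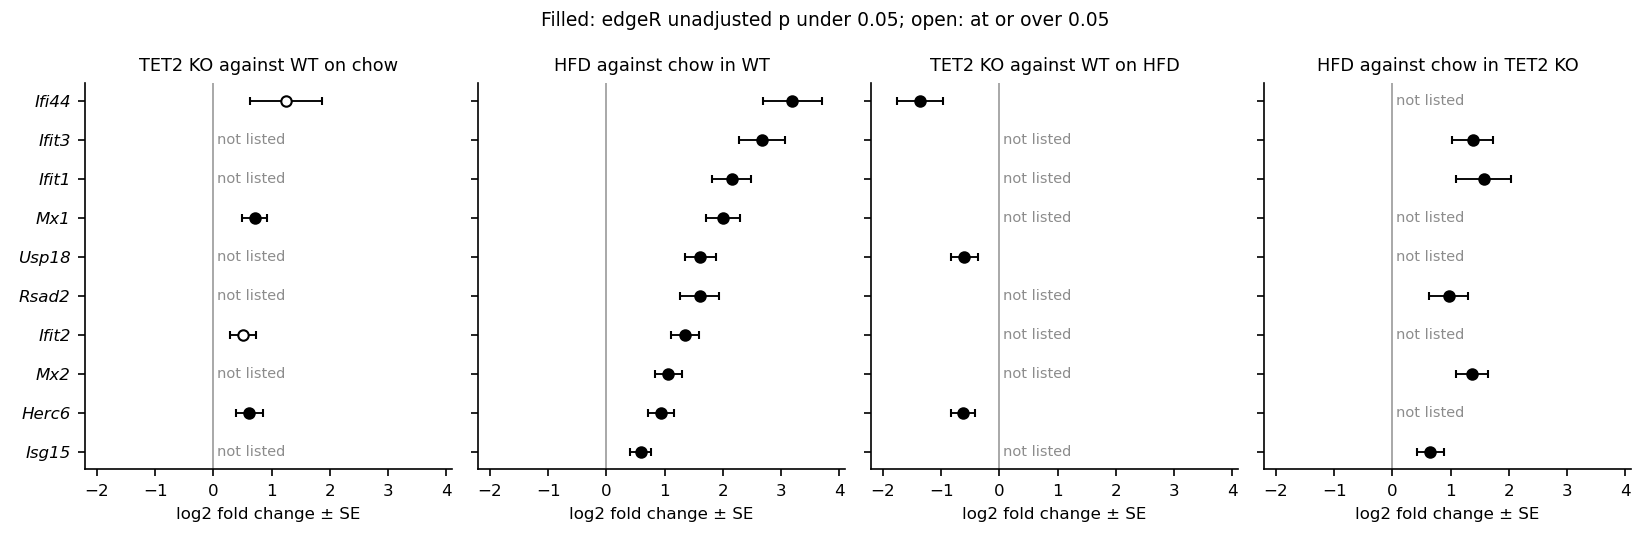
Log2 fold change ± SE of each gene (rows) in the 4 comparisons (panels), filled where the unadjusted edgeR p was under 0.05. All 10 genes are above 0 for HFD against chow in WT, where Ifi44 is at 3.19 and Isg15 at 0.59, and the 3 genes listed for TET2 KO against WT on HFD are below 0.

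In TET2 KO mice, 5 of the 10 genes were listed for HFD against chow and all 5 were higher on HFD, by 1.57-fold for Isg15 to 2.96-fold for Ifit1. Of the genes the authors adjusted, 2.94% were listed as higher here. All 5 had an unadjusted p under 0.05 in edgeR, against 77.0% of the listed genes and 29.3% that were called and higher, and none passed the adjusted threshold (edgeR adjusted p-values of 0.706 to 0.718), against 0.0614% of the listed genes. DESeq2 on the same counts called the 5 before adjustment, as it did 1462 of the 1628 listed genes, since the listing rests on the same test. After adjustment it called Mx2 (DESeq2 adjusted p = 0.0095), against 70 of the listed genes. The groups did not overlap for 4 of the 5, against 72.6% of the listed genes. Their median log2 fold change was 1.37, against -0.51 over all listed genes.

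Ifit1 was 3.98, 1.59 and 1.03 FPKM in the TET2 KO chow libraries and 6.81, 7.61 and 5.18 FPKM in the TET2 KO HFD libraries. Ifit3 was 5.20, 2.27 and 2.45 FPKM on chow and 6.66, 10.1 and 9.04 FPKM on HFD. Both were apart between the diets, but TET2 KO chow replicate 1 stood over the other chow libraries in each. Mx2 was 1.35, 1.10 and 1.13 FPKM on chow and 3.63, 3.65 and 1.95 FPKM on HFD. Isg15 was 13.6, 13.6 and 14.5 FPKM on chow, the tightest group of the series for this gene, and 16.3, 28.1 and 21.1 FPKM on HFD. Rsad2 was 1.68, 1.70 and 1.52 FPKM on chow and 1.69, 3.49 and 4.39 FPKM on HFD, and it was the one gene whose groups overlapped, since HFD replicate 1 stayed at the chow level. Log2 fold changes were 1.57 ± 0.47 for Ifit1, 1.38 ± 0.35 for Ifit3, 1.37 ± 0.28 for Mx2, 0.97 ± 0.33 for Rsad2 and 0.65 ± 0.23 for Isg15. Leaving out each library in turn kept 4 or 5 of the 5 calls, and those of Ifit1, Ifit3 and Mx2 held in all 6 fits, while that of Rsad2 held in 4 and that of Isg15 in 3. Over the 1628 listed genes, 599 to 1062 were called in these fits. The log2 fold change of Ifit1 then lay between 1.23 and 2.32, the highest being without TET2 KO chow replicate 1, and that of Isg15 between 0.43 and 0.83.

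None of the 10 EC markers was listed for this comparison. T cell markers went the other way: 4 of 10 were listed and called lower on HFD, with a summed level of 96.8 to 123 FPKM on HFD and 145 to 208 FPKM on chow. Of 10 monocyte and macrophage markers, 4 were listed and lower and 2 of them called (Lyz2 and Marco), with a summed level of 1990 to 3370 FPKM on HFD and 3940 to 5500 FPKM on chow. A single NK cell marker, Gzma, was listed, at 39.9 FPKM on HFD and 18.3 FPKM on chow on average, and its unadjusted edgeR p was 0.0708. The part of these markers in the levels of the 5 genes was not tested.

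On chow, 4 of the 10 genes were listed for TET2 KO against WT, all 4 higher in TET2 KO. Of the genes the authors adjusted, 2.97% were listed as higher in this comparison. Mx1 and Herc6 were called by edgeR at an unadjusted p under 0.05, against 76.6% of the listed genes and 30.6% that were called and higher. Ifi44 and Ifit2 were not, with unadjusted edgeR p-values of 0.0815 and 0.0525. None passed the adjusted threshold, with edgeR adjusted p-values of 0.792 to 1.0 for the 4, and 0.0% of all listed genes did. DESeq2, the test behind the listing, called all 4 before adjustment, as it did 1140 of the 1298 listed genes. After adjustment it called none of the 4, against 12 of the listed genes.

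Mx1 was 1.04, 0.799 and 0.942 FPKM in WT chow and 1.72, 1.27 and 1.58 FPKM in TET2 KO chow. It was the only one of the 4 whose groups did not overlap, against 74.7% of the listed genes, and its log2 fold change of 0.71 ± 0.22 stayed called whichever library was left out. Herc6 was 2.92, 1.93 and 2.24 FPKM in TET2 KO chow against the 1.26, 1.40 and 1.95 FPKM of WT chow, a log2 fold change of 0.62 ± 0.23. Its groups overlapped narrowly, and its call held in 2 of 6 fits with a library left out. Ifit2 was 2.95, 2.19 and 2.56 FPKM in TET2 KO chow, against 2.24, 1.53 and 1.61 FPKM in WT chow, a log2 fold change of 0.51 ± 0.22. Ifi44 was 0.921, 0.260 and 0.239 FPKM in TET2 KO chow, against 0.145, 0.133 and 0.322 FPKM in WT chow, a log2 fold change of 1.25 ± 0.62. Replicate 1 carried most of the Ifi44 difference, which fell to a log2 fold change of 0.31 ± 0.43 without it. Without TET2 KO chow replicate 1 or without WT chow replicate 2, Mx1 alone of the 4 was called, against 633 and 483 of the 1298 listed genes. T cell markers moved with these genes: 7 of 10 were listed, all higher in TET2 KO, 6 of them were called, and their summed level was 187 to 271 FPKM in TET2 KO and 107 to 176 FPKM in WT. A single EC marker, Ramp2, was listed, and it was not called. The part of the T cell markers in the levels of the 4 genes was not tested.

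On HFD, 3 of the 10 genes were listed for TET2 KO against WT, and here all 3 were lower in TET2 KO: Ifi44 by 2.57-fold, Herc6 by 1.55-fold and Usp18 by 1.51-fold. Of the genes the authors adjusted, 9.77% were listed as lower. All 3 had an unadjusted edgeR p under 0.05, against 82.3% of the listed genes and 39.1% that were called and lower, and none passed the adjusted threshold (edgeR adjusted p-values of 0.237 to 0.26), as did 0.0% of the listed genes. DESeq2, the test behind the listing, called the 3 before adjustment, as it did 3615 of the 3939 listed genes. After adjustment it called Ifi44 (DESeq2 adjusted p = 0.0433), against 577 of the listed genes. The groups did not overlap for the 3 genes, against 74.7% of the listed genes.

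Ifi44 was 0.533, 0.917 and 0.681 FPKM in TET2 KO HFD against 2.84, 1.66 and 0.978 FPKM in WT HFD. Herc6 was 1.53, 2.22 and 1.94 FPKM in TET2 KO HFD against 3.56, 2.89 and 2.35 FPKM in WT HFD. Usp18 was 3.27, 3.69 and 3.18 FPKM in TET2 KO HFD against 7.0, 4.2 and 4.2 FPKM in WT HFD. The highest TET2 KO library came close to the lowest WT library for Ifi44 and Herc6, and WT HFD replicate 1 stood highest for each gene. Log2 fold changes were -1.36 ± 0.39 for Ifi44, -0.63 ± 0.21 for Herc6 and -0.60 ± 0.23 for Usp18. Without WT HFD replicate 1 they were -0.89 ± 0.33, -0.47 ± 0.22 and -0.31 ± 0.18. In that fit Ifi44 alone of the 3 was still called, against 1490 of the 3939 listed genes. EC markers moved with these genes too: 7 of 10 were listed and called lower in TET2 KO, with a summed level of 368 to 674 FPKM against 722 to 1240 FPKM in WT, and the part of that shift in the levels of the 3 genes was not tested. The other 5 genes with values in both groups (Ifit1, Ifit3, Mx2, Rsad2 and Isg15) were not listed for this comparison. In 1 fit over the 12 libraries, added after the data were seen, their log2 differences on HFD lay between -0.53 ± 0.39 for Ifit3 and 0.32 ± 0.27 for Mx2, with unadjusted edgeR p-values of 0.198 to 0.753.

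Whether HFD changed the genes by different amounts in the 2 genotypes was tested by the interaction term over the 12 libraries, for the 7 genes with values in all of them. The difference (TET2 KO minus WT) of the log2 diet effects was -2.61 (95% interval -4.35 to -0.86) for Ifi44 and -1.25 (-2.01 to -0.49) for Herc6. It was -1.29 (-2.51 to -0.07) for Ifit3, with an edgeR adjusted p of 0.0722 over the 975 genes tested. Thus 3 of the 7 had an unadjusted p under 0.05, against 56.4% of the genes tested, and Ifi44 and Herc6 passed the adjusted threshold, as 55.4% of the genes tested did. For the others the interval spanned 0: it was -0.63 (-1.73 to 0.47) for Rsad2, -0.58 (-1.94 to 0.79) for Ifit1, 0.31 (-0.54 to 1.15) for Mx2 and 0.07 (-0.61 to 0.74) for Isg15, and the last pair turned to -0.0887 and -0.28 under TMM scaling over the same genes. These intervals are wide enough to hold differences of more than 1 log2 unit for Rsad2, Ifit1 and Mx2, so no equality of the diet effects can be read from them.

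The way genes came to have values in all libraries bears on these counts. Ifi44 and Herc6 had them because both genotype tables listed them, and among the 364 genes selected in that way alone 98.9% had an interaction p under 0.05, so nothing about these 2 genes in particular can be read from their calls. The other 5 had them through both diet tables, where 18.1% of 514 genes were called, and Ifit3 was the 1 called among the 5. Of the 461 genes listed in both genotype tables, 225 were higher in TET2 KO on chow and lower on HFD, as Ifi44 and Herc6 were, 232 went the reverse way and 4 kept 1 direction. Each group enters 2 of the 4 tables, so comparisons that share a group are not independent of each other. The 2 genotype tables share no group, and neither do the 2 diet tables.

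**Figure D4:**
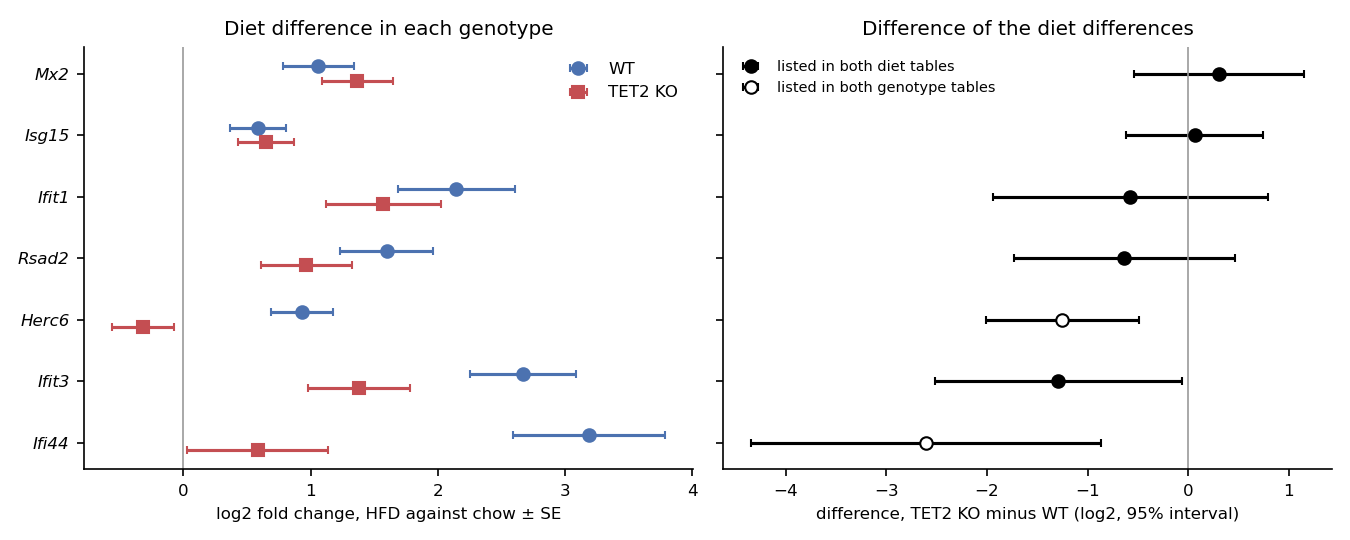
Left, log2 fold change for HFD against chow ± SE of 7 genes (rows) in WT and in TET2 KO cells, from 1 fit over the 12 libraries. Right, the TET2 KO effect minus the WT effect with its 95% interval, which lies below 0 for Ifi44, Ifit3 and Herc6 and spans 0 for the others, with open points for the 2 genes that both genotype tables listed.

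Within a group, 1 library was often the highest for most of these genes. WT HFD replicate 1 was the highest library of its group for 10 of 10 genes, WT chow replicate 3 for 8 of 10, TET2 KO chow replicate 1 for 7 of 9 and TET2 KO HFD replicate 2 for 7 of 8. When the 7 genes with values in all libraries were standardised on log2(FPKM + 0.1), the mean over them lay between -1.31 and -0.50 in WT chow, -0.69 and 0.06 in TET2 KO chow, 0.56 and 1.39 in WT HFD, and 0.20 and 1.02 in TET2 KO HFD. The lowest TET2 KO HFD mean, 0.20 in replicate 1, and the highest TET2 KO chow mean, 0.06 in replicate 1, covered genes that differed in opposite directions between these libraries, with Herc6 at -1.01 on HFD and 1.09 on chow and Mx2 at 1.5 on HFD and -0.58 on chow. Pearson correlations between pairs of the 7 genes over the 12 libraries ranged from 0.357 to 0.952 with a median of 0.77 over 21 pairs, values that share the libraries, their depth and the group differences.

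**Figure D5:**
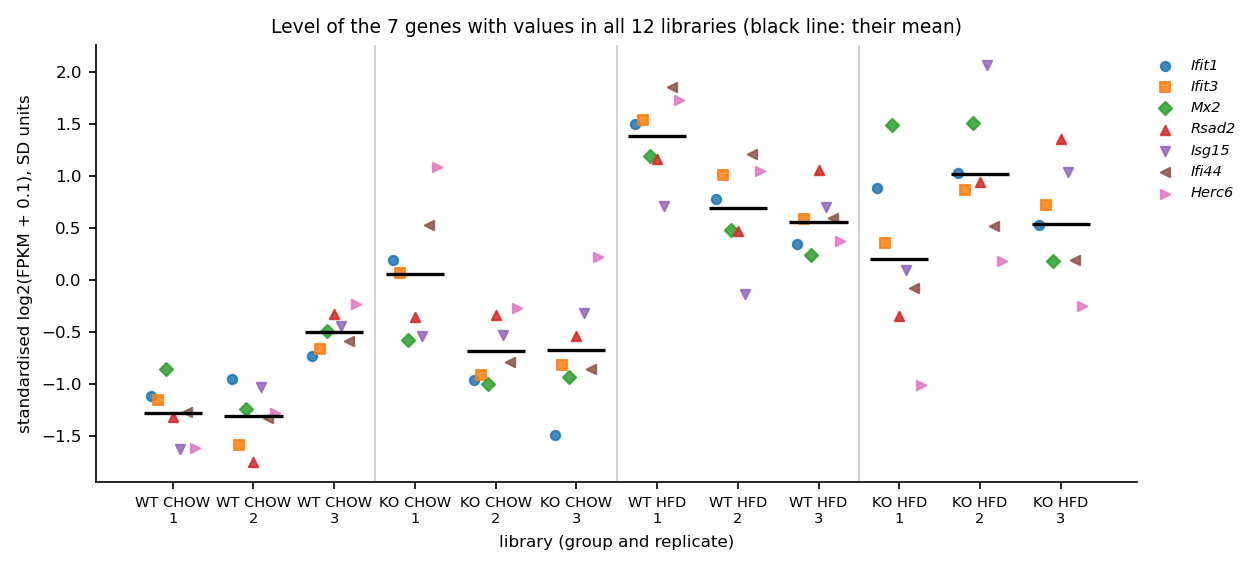
Standardised log2(FPKM + 0.1) of 7 genes in SD units (vertical axis) in each of the 12 libraries, with their mean as a black line. The mean is lowest in WT chow replicates 1 and 2 (-1.28 and -1.31) and highest in WT HFD replicate 1 (1.39).

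The genes whose levels over the 12 libraries were most like this mean, among 810 other genes with values in all libraries and a mean of at least 0.5 FPKM, were Ifit3b (Pearson r = 0.983), Rtp4 (0.982), Cmpk2 (0.954), Xaf1 (0.953), Oasl2 (0.941), Vegfc (0.929), Nxpe4 (0.911), H2-T24 (0.907), Lipe (0.9) and Stat2 (0.896). Over all 810 genes the median r was -0.331. Ifit3b is the near copy of Ifit3, Cmpk2 codes for a mitochondrial nucleotide kinase beside Rsad2, Oasl2 belongs to the oligoadenylate synthetase family, and Stat2 codes for a subunit of the ISRE-binding complex. Vegfc codes for a lymphatic growth factor and Lipe for hormone-sensitive lipase. Rtp4, an interferon-induced receptor chaperone, lay between 2.67 and 5.11 FPKM in WT chow, 3.59 and 7.55 FPKM in TET2 KO chow, 11 and 17.4 FPKM in WT HFD, and 8.45 and 11.2 FPKM in TET2 KO HFD. These correlations are a description over 12 libraries that share the diet and genotype differences.

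Of 41 further interferon pathway genes in 5 lists, 26 were listed in at least 1 table. For HFD against chow in WT, 24 were listed and called, 22 of them higher, and 12 passed the edgeR adjusted threshold. Over all listed genes, 91.6% were called, 42.4% were called and higher, and 18.7% passed the adjusted threshold. Of the 12 receptor and signalling genes, 5 were called higher, among them Irf7 (log2 fold change 0.72 ± 0.14), Ifnar2 (0.59 ± 0.16), Ifngr1 (0.53 ± 0.13) and Stat2 (0.37 ± 0.13), which code for transcription factors and subunits of the type I and type II receptors. Of 12 other interferon-stimulated effectors, 11 were called higher, led by Xaf1 (1.83 ± 0.23), Rtp4 (1.80 ± 0.29), Phf11d (1.69 ± 0.27) and Ifi27l2a (1.58 ± 0.16). Among 8 interferon genes only Ifng was listed, at 1.43, 0.988 and 1.29 FPKM on chow and 1.77, 2.5 and 3.11 FPKM on HFD, a log2 fold change of 0.99 ± 0.29 with an edgeR adjusted p of 0.0764. Unlike the 10 genes, Ifng was lowest of the HFD group in WT HFD replicate 1.

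In the other comparisons fewer of these genes were listed, and the shares of all listed genes that were called were 77.0% for HFD against chow in TET2 KO, 76.6% for TET2 KO against WT on chow and 82.3% for TET2 KO against WT on HFD. For HFD against chow in TET2 KO, 8 were listed, all higher, and 5 were called: Ifit3b (1.51 ± 0.45), Rtp4 (0.95 ± 0.30), Xaf1 (0.73 ± 0.29), Cmpk2 (0.64 ± 0.21) and Irf7 (0.63 ± 0.21). For TET2 KO against WT on chow, 5 were listed and called, all higher, among them Ifit1bl1 (1.07 ± 0.33), a relative of Ifit1, Zbp1 (0.56 ± 0.19), Ifi27l2a (0.48 ± 0.19) and Ifi27 (0.34 ± 0.12). For TET2 KO against WT on HFD, 7 were listed and called, with 5 lower (Phf11d, Ifit1bl1, Xaf1, Bst2 and Ifi27, from -0.95 ± 0.21 to -0.39 ± 0.15) and 2 higher (Trim25, 0.57 ± 0.12, and Ifngr2, 0.34 ± 0.13). With a library left out, the 5 calls on chow fell to as few as 1 (without TET2 KO chow replicate 3), or to 2 without WT chow replicate 1 or 2 and 3 without TET2 KO chow replicate 1. The 7 calls on HFD fell to as few as 3 (without WT HFD replicate 1), or to 4 without TET2 KO HFD replicate 1 or 2, and the 5 calls for HFD in TET2 KO fell to 3 without chow replicate 2 or HFD replicate 2. None of these 3 comparisons gave a pathway gene that passed the edgeR adjusted threshold.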

How the data were processed

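RNA-seq of CD31+ lung cells from 12 mice was analysed from 4 deposited tables, one per pair of groups, and groups were taken from the labels. The authors aligned clean paired-end reads to mm10 with HISAT2 and deposited featureCounts read counts per gene, an FPKM value, and a normalized signal (each library's counts over its DESeq2 size factor). They also deposited log2 fold changes, not used here, and DESeq2 p-values, raw and adjusted, used only to test the listing threshold (0 listed genes at or over 0.05) and to recover how many genes were adjusted (18463 for TET2 KO against WT on chow, 23768 for HFD against chow in WT, 18703 for TET2 KO against WT on HFD and 19511 for HFD against chow in TET2 KO). Tool versions are not given in the sources used here.

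The main test was the two-sided quasi-likelihood test of edgeR 4.0.16 in R 4.3.3, fitted to every listed gene in the 2 groups compared, with library sizes set from the authors' size factors, no covariate and no further filter on low counts. A call means an unadjusted p under 0.05, as in the listing. Adjusted p-values are Benjamini-Hochberg values that take the authors' number of adjusted genes as the number of tests. The interaction was fitted to the 975 genes with counts in all 12 libraries, with library totals derived from the counts, lengths and FPKM, and intervals are 95%. An exact permutation test of 3 against 3 cannot go below 0.1 and was not used. Alternatives were library totals, TMM (edgeR's trimmed mean scaling) over the listed genes, DESeq2 1.42.0, a mean count of at least 10, the replicate number as a block, adjusted p-values and leaving out each library, and 1 fit over the 12 libraries was added after the data were seen. Likeness used Pearson r on log2(FPKM + 0.1), with a pseudocount of 1 and no FPKM filter as alternatives. Fits were tested on simulated data. Libraries held 36.7 to 56.8 M reads. Gene positions in the tables equal those of GENCODE M21 for all 10 genes, near copies were found with BLAST+ 2.17.0 among its transcripts, and promoter windows are RefSeq's.

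Members, pathway lists and marker lists were chosen with earlier results of these data known. The text names all 10 members, the pathway genes that a table lists (except one that is counted but not reported here), and the 10 most alike genes, and markers named beside a result were chosen after their values were seen.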

Additional observations from a re-analysis of the deposited data

Results flagged for a closer look

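The interaction term, which asks whether the log2 difference between HFD and chow differs between genotypes, had an unadjusted edgeR p under 0.05 for 3 of the 7 genes with values in all 12 libraries, against 56.4% of the 975 genes tested, and an adjusted p under 0.05 for 2. The TET2 KO diet effect minus the WT diet effect was -2.606 ± 0.799 (SE) for Ifi44, -1.25 ± 0.348 for Herc6 and -1.2893 ± 0.561 for Ifit3, with edgeR adjusted p-values of 0.0196, 0.0161 and 0.0722. In the fit over the 12 libraries, the WT diet effects were 3.19, 0.93 and 2.67 for Ifi44, Herc6 and Ifit3, and those in TET2 KO were 0.58, -0.32 and 1.38. Ifi44 and Herc6 have values in all libraries only through both genotype tables, a choice under which 98.9% of genes were called. Ifit3 came through both diet tables, where 18.1% of genes were called. With 1 library left out, the Ifit3 call held in 5 of 12 fits and its value lay between -1.63 and -0.80. The calls of Ifi44 held in all 12 fits, with values between -3.13 and -1.68, and the value nearest 0 came without TET2 KO chow replicate 1.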

How the results depend on the processing

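For TET2 KO against WT on chow, 2 genes were called, against 4 with DESeq2, 0 at an adjusted p under 0.05, 1 of 7 in 1 fit over the 12 libraries, which was chosen after seeing the data, and 1 to 3 with a library left out. DESeq2 is also the test behind the listing, so its unadjusted calls were largely set in advance. For TET2 KO against WT on HFD the count of 3 became 0 at an adjusted p and 1 to 3 with a library left out, and for HFD against chow in TET2 KO the count of 5 became 0 at an adjusted p. The other 61 of 69 counts of calls were within 1.5 times. For HFD against chow in WT, the adjusted count of 8 was 10 with DESeq2, 9 with TMM, 7 with a mean count of at least 10 and 0 of 7 in the fit over the 12 libraries. That last fit held only 975 genes while its adjustment counted 23768 tests, so its adjusted count cannot be set against the others. Over all genes tested, the adjusted count of 1368 was 4587 with DESeq2, 2008 with TMM and 1046 with a mean count of at least 10. With the replicate block, 3, 10, 3, 5 and 2 genes were called for TET2 KO on chow, HFD in WT, TET2 KO on HFD, HFD in TET2 KO and the interaction, and 0 of 10 passed the adjusted threshold for HFD in WT (edgeR adjusted p-values of 0.088 to 0.155). For HFD in WT with this block, 0 of the 7330 listed genes passed it. No pairing by replicate number was seen in deviations from the group means over listed genes. Same-numbered libraries correlated at -0.139 to 0.212 and different-numbered ones at -0.42 to 0.365, and at most 1 of 3 correlated best with its own number. With 3 libraries per group this cannot exclude a shared batch. The interaction reversed for Mx2 under TMM, from 0.31 to -0.0887, and for Isg15, from 0.07 to -0.28 under TMM and between -0.16 and 0.24 with a library left out. For Ifit1 it was -0.58, and between -0.92 and 0.17 with a library left out. TMM over these selected genes moved the median of all genes by -0.349 for the interaction and by 0.248 for HFD in TET2 KO, where the share of calls that were higher went from 38.0% to 64.2%. That share went from 39.9% to 49.6% for TET2 KO on chow. The cause was not tested. Of 52 counts of pathway calls, 18 moved by over 1.5 times. Among these, that for HFD in TET2 KO went from 5 to 8 with DESeq2 or TMM and to 3 with a library left out, that for TET2 KO on chow from 5 to as few as 1 and that for TET2 KO on HFD from 7 to as few as 3 with a library left out. At the lowest depth here, 30 reads for Ifi44, counting error adds to the spread between mice. With a library left out, 7 to 10 of the 10 most alike genes were kept.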

Other observations

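Other marker lists also moved in some comparisons, given here as values. For HFD against chow in WT, 2 of 10 T cell markers were listed and called higher, and 5 of 8 lung epithelial markers were listed, of which Ager (log2 fold change 1.34 ± 0.29) and Hopx (1.18 ± 0.26), both of alveolar type I cells, were called higher and Epcam (-0.70 ± 0.22) lower. Sftpb (0.90 ± 0.46) and Scgb1a1 (-0.58 ± 0.29) were not called. Of 5 platelet markers, 3 were listed: Gp1ba (-1.45 ± 0.23) and Itga2b (-0.48 ± 0.18) were called lower, and Ppbp was higher (0.87 ± 0.46) without a call. Of 6 neutrophil markers Retnlg alone was listed, at 134 ± 88.7 FPKM (SD, n = 3) on HFD and 373 ± 110 FPKM on chow. Of 6 plasmacytoid dendritic cell markers, Bst2, itself interferon-induced, was called higher (0.93 ± 0.17), while Siglech was 5.28 ± 2.18 FPKM on HFD and 8.43 ± 1.28 FPKM on chow and was not called. For TET2 KO against WT on HFD, Ager (-1.06 ± 0.30), Hopx (-0.73 ± 0.23), Bst2 (-0.58 ± 0.15) and 1 of 10 monocyte and macrophage markers were called lower, Gp1ba (0.83 ± 0.30) was called higher, and 2 of 8 NK cell markers were listed as lower without a call. On chow, with TET2 KO set against WT, 2 of 8 NK cell and 2 of 10 monocyte and macrophage markers were called higher, the club cell gene Scgb1a1 (-0.90 ± 0.18) was called lower, and Gp1ba was listed at -0.76 ± 0.35 without a call. For HFD against chow in TET2 KO, Blk (0.52 ± 0.22), the 1 B cell marker of 6 that any table listed, was called higher and Epcam (-0.60 ± 0.21) lower. The part of these markers in the levels of the 10 genes was not tested.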
